A study of Mus musculus with 9 samples.

Results

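The 7 genes described here are mouse genes for 3 endogenous opioid precursors and 4 opioid receptors. Pomc, the precursor of beta-endorphin, is not among the 7 and is described below with other related genes. The precursors are Penk (proenkephalin), Pdyn (prodynorphin) and Pnoc (prepronociceptin). The receptors are Oprk1 (kappa), Oprm1 (mu), Oprd1 (delta) and Oprl1 (the nociceptin receptor). They were chosen by name and function, and are 7 of the 22601 genes in the count table. Their values come from single-cell RNA-seq of the central amygdala, dissected and dissociated from acute brain slices of wild-type B6 mice, an inbred laboratory strain, with cells pooled over slices. The 9 samples form 1 group with no treatment, no altered allele and no control group, and the age, sex and number of the mice are not given in the labels. A metadata table of the cells combines 3 animal numbers with 3 values of a part of the cell identifier, called the date field here. Since nothing states that the samples are separate animals, the p-values below measure only the spread between these samples, which may be technical.

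Opioid peptides are cut out of larger precursor proteins in the secretory pathway, by prohormone convertases that cleave at pairs of basic residues and by enzymes that trim the ends. Enkephalins act mainly on delta and mu receptors, dynorphins mainly on kappa receptors and nociceptin on its own receptor, and all of these receptors couple to inhibitory G proteins. The central amygdala is an inhibitory nucleus in which enkephalin, dynorphin and nociceptin neurons have been studied in fear, pain, feeding and alcohol drinking.

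The sequences below show what sets the precursors apart, the codons of the 4 residues that open each active peptide, with 6 bases before and 9 after. They were read from GENCODE M21 transcripts (GRCm38), in the longest reading frame of each gene. Capitals mark the 12 bases of the opening residues, which are tyrosine, glycine, glycine and phenylalanine in Penk and Pdyn. The frame of Penk holds 7 such copies, 6 of them followed by a methionine codon (the start of Met-enkephalin) and 1 by a leucine codon (Leu-enkephalin). Pdyn holds 3 copies, all followed by leucine, which open alpha-neoendorphin, dynorphin A and dynorphin B in that order. Pnoc holds 0 copies of that motif and 1 copy with phenylalanine in the first place, which opens nociceptin.
Penk, copy 1 (methionine next): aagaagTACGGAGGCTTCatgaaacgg
Penk, copy 6 (leucine next): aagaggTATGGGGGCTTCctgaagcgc
Pdyn, copy 1: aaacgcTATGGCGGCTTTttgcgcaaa
Pdyn, copy 2: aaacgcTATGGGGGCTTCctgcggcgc
Pdyn, copy 3: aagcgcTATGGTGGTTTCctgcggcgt
Pnoc, copy 1: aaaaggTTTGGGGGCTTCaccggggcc

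Of 829 cells, 810 were inhibitory neurons, defined as cells positive for at least 1 of Gad1, Gad2 and Slc32a1 and for neither Slc17a7 nor Slc17a6. Cells counted as positive for a gene from 1 count of it in every 10000 gene counts upward, after spike-in rows were dropped. A neuron held a median of 126576 gene counts (401 to 587188), the medians of the samples ran from 96675 to 227570, and sample 5 was the deepest. Among markers of other cells, C1qa, Cx3cr1, Cldn5, Flt1, Gja1 and Foxj1 were positive in 0 neurons, a limit of 0.370% at this number of neurons. Aqp4 and Slc1a3 were positive in 1 each, Csf1r, Aldh1l1 and Cspg4 in 2 each, Pdgfra in 3 and Chat, a cholinergic marker, in 7. Of 4 oligodendrocyte genes, Mbp was positive in 210 neurons, Mobp in 3, and Mog and Mag in 2 each. Of 376 cell barcodes, 368 were found in more than 1 sample, so cells were identified by sample and barcode.

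Penk was the precursor found in most neurons. It was positive in 77.7% ± 5.85 of inhibitory neurons (SD, n = 9), from 67.4% in sample 4 to 84.5% in sample 9, with a median of 79.3%. Pdyn was positive in 20.5% ± 6.93 (13.1% to 35.8%, median 20.7%). Pnoc was positive in 13.7% ± 4.56 (6.98% to 21.1%, median 13.0%). The 3 precursors kept the order Penk, Pdyn, Pnoc in each sample except sample 9, where Pnoc (14.3%) lay above Pdyn (13.1%), and the ranges of Pdyn and Pnoc overlap.

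Oprl1 was the receptor found in most neurons. It was positive in 25.1% ± 4.76 of neurons (SD, n = 9, 16.7% to 31.6%, median 24.4%). Oprk1 was positive in 7.78% ± 2.41 (4.21% to 10.98%, median 7.53%). Oprm1, the main target of morphine, was positive in 3.04% ± 1.94, from 0 of 82 neurons in sample 7 to 5.43% in sample 2, with a median of 4.21%. Oprd1 was positive in 2 neurons, 1 in sample 3 and 1 in sample 7. In each sample the share of Oprl1 exceeded that of Oprk1, and that of Oprd1 was 0 or the lowest except in sample 7, where Oprm1 was lower. Counts are not corrected for gene length, so the order of the shares is an order of detection at 1 threshold and not of transcript number.

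**Figure D1:**
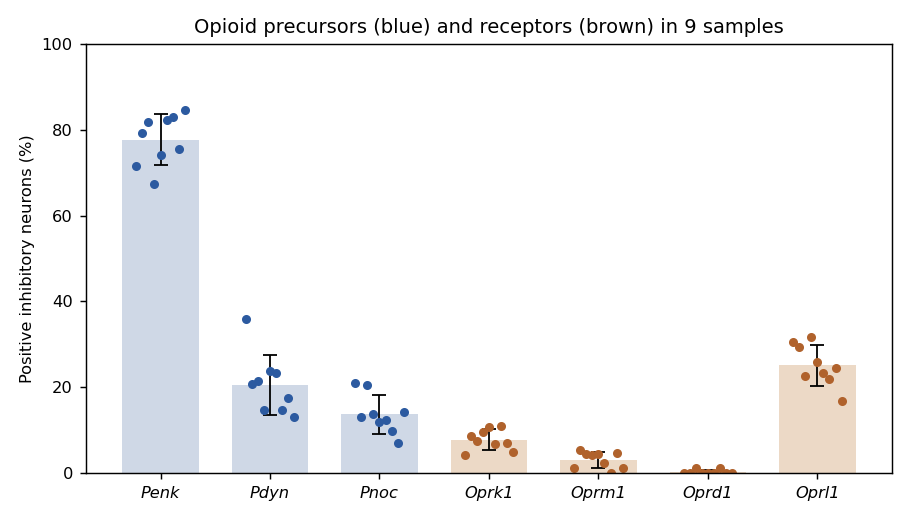
Share of inhibitory neurons positive for each gene (y axis, percent), with 1 point per sample, bars for the mean and whiskers for the SD over 9 samples. Penk stands at 77.7%, Oprl1, Pdyn and Pnoc between 13.7% and 25.1%, and Oprk1, Oprm1 and Oprd1 under 8% on average.

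Levels per cell show how graded each gene was. In Penk-positive neurons the median level was 16.0 counts per 10000 (quartiles 5.17 and 37.0, highest 169), and a further 133 neurons held Penk counts below the threshold, so 761 of 810 held at least 1. In Pdyn-positive neurons the median was 9.80 (3.56 and 23.8, highest 68.1), and the tenth of neurons with the most Pdyn held 85.3% of its summed level, against 42.3% for Penk. Penk was spread over most neurons, while Pdyn was concentrated in fewer. The median in positive neurons was 3.31 for Pnoc, 2.73 for Oprk1, 1.82 for Oprl1 and 1.49 for Oprm1. For the receptors these levels lie close to the threshold of 1. At least 1 count was found in 352 neurons for Oprl1, 102 for Oprk1, 75 for Oprm1 and 12 for Oprd1, against 205, 63, 25 and 2 positive ones.

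Shares also differed between date fields. Pdyn averaged 26.0%, 20.6% and 15.1% of neurons in the 3 date fields (3 samples each), Pnoc 18.2%, 12.6% and 10.3%, and Oprl1 27.5%, 26.9% and 21.01%. Penk had means of 77.5%, 74.6% and 81.0%, which follow no such order. By animal number, Penk averaged 74.0%, 76.4% and 82.8% and Oprl1 28.02%, 26.5% and 20.9%. These groups of 3 were not tested, and the comparisons below are made within samples, each of which belongs to 1 date field and 1 animal number.

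Neurons were then split by 4 marker genes of central amygdala classes, each in turn. These were Prkcd (protein kinase C delta, 343 positive and 467 negative neurons), Sst (somatostatin, 148 and 662), Isl1 (a LIM homeodomain transcription factor, 76 and 734) and Nr2f2 (the orphan nuclear receptor COUP-TFII, 116 and 694). The classes overlap, so the 4 splits are not independent. Shares were compared with an exact permutation test (two-sided, flipping signs of the samples' differences), adjusted over all 28 combinations of gene and marker, and the smallest raw p that 9 samples can give is 0.00391. Of the 28 share differences 7 passed an adjusted p of 0.05, 3 higher and 4 lower in the marker-positive neurons, and 13 had an unadjusted p under 0.05. Levels were compared with edgeR on counts summed per sample and class, with the sample as a block and p-values adjusted over all genes tested. Oprd1 had too few counts to be tested in any split, so each split tested 6 of the 7 genes.

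In the Sst split Pdyn was much higher, and Penk and Oprm1 lower, in Sst-positive neurons. The share of Pdyn-positive cells was 71.4% ± 14.3 in Sst-positive and 8.95% ± 2.45 in Sst-negative neurons (SD, n = 9). By sample it ran from 50% to 86.2% (median 76.5%) in the former and from 5.56% to 13.6% (median 8.22%) in the latter, so the classes did not overlap and the difference had the same sign in 9 of 9 samples (exact sign-flip permutation, adjusted p = 0.0182). The summed level of Pdyn was 870 to 2319 CPM (counts scaled to the gene counts of the class, median 1639) in Sst-positive neurons and 29.8 to 105 CPM (median 41.5) in Sst-negative ones. Its log2 fold change was 4.95 ± 0.20 (SE, edgeR, adjusted p = 2.15e-09), and Pdyn was higher in 9 of 9 samples. Of 6 opioid genes tested, 1 rose and 2 fell in Sst-positive neurons, where 4.53% of all 11355 genes tested passed, 2.26% higher and 2.26% lower.

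Penk fell in Sst-positive neurons by level. It stood at 501 to 2337 CPM (median 911) against 1843 to 2699 CPM (median 2308) in Sst-negative neurons, and the classes overlapped through sample 4 (2337 CPM). The log2 fold change was -1.24 ± 0.19 (edgeR, adjusted p = 0.00183), with 8 of 9 samples lower. The shares were 72.1% ± 5.66 and 79.1% ± 6.35 (exact sign-flip permutation, adjusted p = 0.0925). With positive cells set at 3 per 10000 the share difference was -19.0 percentage points and passed (exact sign-flip permutation, adjusted p = 0.0410), while with genes and markers positive from 1 count the level call was lost (-0.46, edgeR, adjusted p = 0.623). At the threshold of 1 per 10000 Penk was still positive in most Sst-positive neurons, in which its level was lower.

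Oprm1 was nearly undetected in Sst-positive neurons. Of 148 such neurons 1 was positive, and the class held 25 Oprm1 counts in all, against 895 in Sst-negative neurons. Its level was 0 to 7.54 CPM (median 0) against 1.80 to 16.1 CPM (median 10.1), lower in 9 of 9 samples, although the ranges overlap. The log2 fold change was -4.92 ± 1.12 (edgeR, adjusted p = 0.0230), and the share difference did not pass (0.654% against 3.57%, exact sign-flip permutation, adjusted p = 0.0795). The call rests on few counts. With edgeR it was lost without sample 2 (-4.52), 5 (-4.72), 6 (-4.60) or 8 (-4.70), at adjusted p of 0.0544 to 0.0612, and with no sample block (-2.90, adjusted p = 0.0740). It was also lost at 1 count (-0.24, edgeR, adjusted p = 0.994), where 450 neurons rather than 148 were classed as Sst-positive. Among Prkcd-negative neurons it held (-5.76, edgeR, adjusted p = 0.00464).

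The other 3 genes tested in the Sst split did not pass. Pnoc was at 20.8% ± 12.2 of Sst-positive and 12.2% ± 3.88 of Sst-negative neurons, with a log2 fold change of 0.78 ± 0.33 (edgeR, adjusted p = 0.246). Oprk1 was at 5.16% and 8.32% (log2 fold change -1.87 ± 0.68, edgeR, adjusted p = 0.164), and passed with DESeq2 (-1.93, adjusted p = 0.00770). Oprl1 was at 24.7% and 26.0% (0.06 ± 0.22, edgeR, adjusted p = 0.925). Oprl1 thus had the fold change nearest 0 of the 6 genes in this split.

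**Figure D2:**
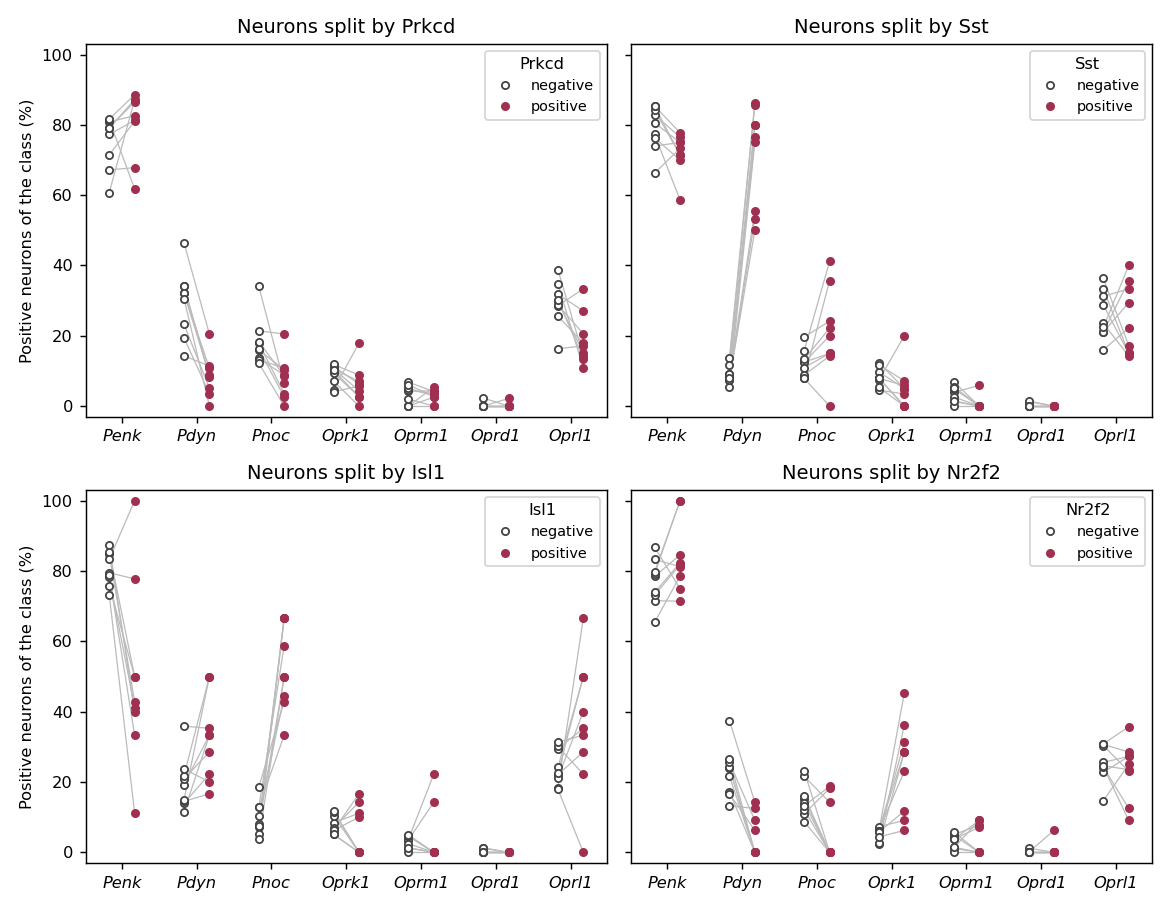
Share of positive neurons (y axis, percent) for the 7 genes in marker-negative (open) and marker-positive (filled) neurons, 1 panel per marker, with a line joining the classes of each of 9 samples. Pdyn in the Sst panel and Pnoc in the Isl1 panel separate without overlap, and Oprk1 lies higher in each sample in the Nr2f2 panel.

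Prkcd-positive neurons held less Pdyn and less Oprl1, and slightly more Penk. Pdyn was positive in 8.59% ± 5.77 of Prkcd-positive and 29.6% ± 9.46 of Prkcd-negative neurons, lower in 9 of 9 samples (exact sign-flip permutation, adjusted p = 0.0182). Its level was 5.14 to 325 CPM (median 100.5) against 154 to 719 CPM (median 487). These ranges overlap between samples, but within each sample the Prkcd-positive class was the lower one. The log2 fold change was -2.45 ± 0.44 (edgeR, adjusted p = 0.00155). With positive cells set at 1 count, 498 neurons were Prkcd-positive and 312 Prkcd-negative. Between those classes neither the level (-0.82, edgeR, adjusted p = 0.111) nor the share (-7.12 percentage points, exact sign-flip permutation, adjusted p = 0.178) passed. Of 6 opioid genes tested, 1 rose and 2 fell, where 17.3% of all 11487 genes passed, 7.6% higher and 9.74% lower.

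Oprl1 stood at 30.7 to 64.3 CPM (median 45.4) in Prkcd-positive and 55.4 to 103.1 CPM (median 72.1) in Prkcd-negative neurons. It was lower in 9 of 9 samples, by a log2 fold change of -0.75 ± 0.17 (edgeR, adjusted p = 0.00667), while the shares of 18.9% ± 7.17 and 29.4% ± 6.22 did not pass (exact sign-flip permutation, adjusted p = 0.0729). At 1 count the level call was lost (-0.48, edgeR, adjusted p = 0.103). The share difference passed in thinned counts (-8.84 percentage points, exact sign-flip permutation, adjusted p = 0.0437).

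Penk was at 1619 to 2978 CPM (median 2275) in Prkcd-positive and 1086 to 2137 CPM (median 1741) in Prkcd-negative neurons. The classes overlap, and 7 of 9 samples were higher (log2 fold change 0.42 ± 0.12, edgeR, adjusted p = 0.0268). With edgeR the call was lost without sample 1 (0.36), 2 (0.35), 3 (0.41), 8 (0.35) or 9 (0.36), at adjusted p of 0.0556 to 0.0809, without Mbp-positive neurons (0.33, adjusted p = 0.148), in thinned counts (0.41, adjusted p = 0.0509) and at 1 count (0.17, adjusted p = 0.678). In the second date field the mean was lower in the Prkcd-positive class (1934 against 2068 CPM), the 1 exception among the 78 means within date fields and animal numbers for called level differences.

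Pnoc differed by Prkcd in its share. It was positive in 7.98% ± 5.99 of Prkcd-positive and 18.1% ± 6.64 of Prkcd-negative neurons, lower in 9 of 9 samples (exact sign-flip permutation, adjusted p = 0.0182). The level was 0 to 111 CPM (median 29.0) against 44.2 to 121 CPM (median 81.6), with a log2 fold change of -1.60 ± 0.53 that did not pass (edgeR, adjusted p = 0.0542). It passed without sample 1 (-1.87), 2 (-1.86) or 5 (-1.84), in thinned counts (-1.82) and with DESeq2 (-1.79). At 1 count the share difference was -3.72 percentage points, against -10.1, and did not pass (exact sign-flip permutation, adjusted p = 0.562). Oprk1 (-0.79 ± 0.50, edgeR, adjusted p = 0.332) and Oprm1 (-0.52 ± 0.65, edgeR, adjusted p = 0.662) did not pass by level, and Oprm1 was positive in 2.86% and 3.20% of the classes.

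Isl1-positive neurons held more Pnoc and less Penk. Pnoc was positive in 53.3% ± 12.1 of Isl1-positive neurons, from 33.3% to 66.7% by sample (median 50%), and in 9.61% ± 4.58 of Isl1-negative ones, from 3.75% to 18.6% (median 8.05%). The classes did not overlap and the difference had the same sign in 9 of 9 samples (exact sign-flip permutation, adjusted p = 0.0182). By level Pnoc was at 44.0 to 322 CPM (median 192) against 16.2 to 79.6 CPM (median 38.4), higher in 8 of 9 samples, with a log2 fold change of 2.06 ± 0.37 (edgeR, adjusted p = 0.00588). The exception by level was sample 9.

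Penk was positive in 49.6% ± 25.7 of Isl1-positive and 80.8% ± 4.80 of Isl1-negative neurons. In Isl1-positive neurons the share ran from 11.1% in sample 4 to 100% in sample 9, with 6 to 17 such neurons per sample (exact sign-flip permutation, adjusted p = 0.0469). That share difference was lost when any sample other than sample 9 was left out, at adjusted p of 0.0625 to 0.0820 and differences of -27.3 to -34.9 percentage points, and at 1 count (-8.40 points, exact sign-flip permutation, adjusted p = 0.186). The level was clearer, at 109 to 880 CPM (median 455) against 1783 to 2515 CPM (median 2284) without overlap. The log2 fold change of Penk was -2.45 ± 0.30 (edgeR, adjusted p = 0.000427). Of 6 opioid genes tested, 1 rose and 1 fell, where 4.85% of all 11169 genes passed, 1.7% higher and 3.15% lower.

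In the Isl1 split the remaining genes did not pass. Pdyn was positive in 32.2% ± 11.98 and 19.6% ± 7.37 of the classes while its level was lower in 7 of 9 samples (log2 fold change -0.65 ± 0.34, edgeR, adjusted p = 0.292), so its share and level differed in sign. The share difference of Pdyn, 12.5 percentage points, did not pass (exact sign-flip permutation, adjusted p = 0.0729), but did at 1 count (18.01), in thinned counts (12.6) and without cells under 20000 counts (13.5). Oprl1 was positive in 36.2% ± 19.0 and 24.2% ± 5.04 (0.32 ± 0.27, edgeR, adjusted p = 0.528). Oprk1 and Oprm1 were positive in 4 and 3 of the 76 Isl1-positive neurons. These neurons were deeper, with a median of 169576 counts against 123695, and the summed level of the 4 oligodendrocyte genes was 20.6 to 115 CPM against 54.3 to 1406 CPM, where the highest value is that of sample 5 and the next is 98.8 CPM. In counts thinned to 70000 per cell, and without Mbp-positive neurons, the Penk and Pnoc calls held.

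Nr2f2-positive neurons held more Oprk1 and less Pdyn. Oprk1 was positive in 24.5% ± 13.2 of Nr2f2-positive neurons, from 6.25% in sample 9 to 45.5% in sample 5 (median 28.6%), and in 5.22% ± 1.76 of Nr2f2-negative ones, from 2.27% to 7.32% (median 6.06%). The ranges overlapped at their ends, and the share was higher in 9 of 9 samples (exact sign-flip permutation, adjusted p = 0.0182). The level was 13.5 to 147 CPM (median 99.96) against 7.99 to 23.4 CPM (median 19.6), higher in 8 of 9 samples. The log2 fold change of Oprk1 was 2.24 ± 0.47 (edgeR, adjusted p = 0.0312). This edgeR call was lost without sample 1 (1.99), 2 (2.22), 4 (2.17), 5 (2.14), 6 (2.0) or 7 (2.17), at adjusted p of 0.0668 to 0.0802, and without Mbp-positive neurons (2.02, adjusted p = 0.115). It was also lost in counts thinned to 70000 per cell (1.93, edgeR, adjusted p = 0.103) and with positive cells set at 3 per 10000 (1.61, adjusted p = 0.229). The share difference of 19.3 percentage points held when any 1 sample was left out, but at 3 per 10000 it was 5.95 points and did not pass (exact sign-flip permutation, adjusted p = 0.2625). At 3 per 10000, 48 neurons were Nr2f2-positive and 6 samples kept at least 5 neurons in each class. The smallest raw p that 6 samples can give is larger than that of 9. That setting therefore does not decide whether the share difference holds.

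Pdyn was positive in 5 of 116 Nr2f2-positive neurons, a mean of 4.68% ± 5.97 against 23.0% ± 7.09, lower in 9 of 9 samples (exact sign-flip permutation, adjusted p = 0.0182). Its level was 0.652 to 59.7 CPM (median 2.70) against 137 to 579 CPM (median 372), without overlap (log2 fold change -5.06 ± 0.62, edgeR, adjusted p = 0.00101). Of 6 opioid genes tested, 1 rose and 1 fell, where 1.69% of all 11008 genes passed, 0.409% higher and 1.28% lower. Pnoc was at 0 to 84.2 CPM (median 0.959) against 31.8 to 123 CPM (median 68.6), with a log2 fold change of -3.93 ± 1.03 that did not pass (edgeR, adjusted p = 0.0788). It passed without sample 5 (-4.65) or 9 (-4.67), in thinned counts (-3.54) and with DESeq2 (-5.33). Penk (-0.21 ± 0.13, edgeR, adjusted p = 0.531), Oprm1 (-1.38 ± 1.12, edgeR, adjusted p = 0.625) and Oprl1 (-0.27 ± 0.23, edgeR, adjusted p = 0.637) did not pass.

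**Figure D3:**
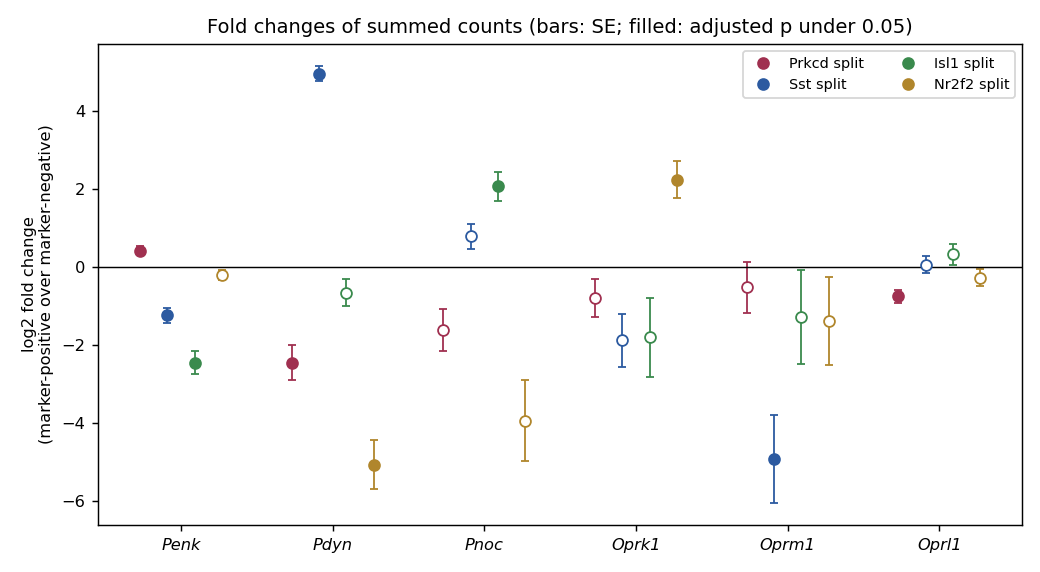
Log2 fold change of summed counts, marker-positive over marker-negative neurons (y axis), for the 6 genes tested by edgeR over 9 samples, with SE as whiskers and filled points at an adjusted p under 0.05. Pdyn spans from -5.06 in the Nr2f2 split to 4.95 in the Sst split, while Oprl1 stays between -0.75 and 0.32.

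Since the classes overlap, the splits were repeated among neurons lacking another marker. Among Sst-negative neurons, Pdyn was positive in 5.03% of Nr2f2-positive and 9.70% of Nr2f2-negative neurons. Its log2 fold change there was -2.84, which did not pass (edgeR, adjusted p = 0.226). The Oprk1 share among Sst-negative neurons was 24.4% against 5.41% and passed, while its level did not (2.12, edgeR, adjusted p = 0.0899). Among Prkcd-negative neurons Oprk1 passed by level (2.93, edgeR, adjusted p = 0.00209). Pdyn also held there by level (-5.21, edgeR, adjusted p = 0.000866, n = 8). Its shares were 6.59% of Nr2f2-positive and 33.1% of Nr2f2-negative neurons, which passed (exact sign-flip permutation, adjusted p = 0.0410).

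The Prkcd difference of Pdyn held among Sst-negative neurons, with 3.25% against 14.6% positive and a log2 fold change of -2.47 (edgeR, adjusted p = 0.0261). Pnoc there fell by 2.66 on the log2 scale in Prkcd-positive neurons (edgeR, adjusted p = 0.00741), and Penk no longer passed (0.32, adjusted p = 0.0651). The Oprl1 difference among Sst-negative neurons was -0.89 (edgeR, adjusted p = 0.00390), with shares of 18.4% and 33.1%. Among Prkcd-negative neurons Pdyn still rose with Sst (4.56, edgeR, adjusted p = 3.22e-07). The Pnoc level in Isl1-positive neurons was 1.54 higher on the log2 scale but did not pass there (edgeR, adjusted p = 0.0718), while its share, 49.4% against 13.1%, did. Among Sst-negative neurons the Pdyn share was 28.4% in Isl1-positive and 6.93% in Isl1-negative neurons and passed (exact sign-flip permutation, adjusted p = 0.0164), while its level did not (1.40, edgeR, adjusted p = 0.185).

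Neurons positive for 1 marker alone are given here without a test. Of 265 neurons with Prkcd alone, 219 were positive for Penk and 7 each for Pdyn and Pnoc. Of 111 with Sst alone, 86 were positive for Pdyn, 80 for Penk and 0 for Oprm1 (limit 2.70%). Of 55 with Isl1 alone, 27 were positive for Pnoc, 25 for Penk and 23 for Oprl1. Of 60 with Nr2f2 alone, 18 were positive for Oprk1. The 225 neurons with none of the 4 markers held Penk in 184, Oprl1 in 72, Pnoc in 33, Pdyn in 30 and Oprk1 in 15.

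Neurons positive for a pair of markers were few, and their counts are given for each gene separately. Of 23 neurons with Prkcd and Sst, 20 were positive for Pdyn and 14 for Pnoc. Of 12 with Prkcd and Isl1, 10 were positive for Pnoc. Of 47 with Prkcd and Nr2f2, 40 were positive for Penk, 7 for Oprk1, 1 for Pdyn and 0 for Pnoc (limit 6.38%). Of 8 with Sst and Nr2f2, 7 were positive for Penk and 0 for Pdyn or Pnoc (limit 37.5%). No doublet caller was run, and the part of wells holding more than 1 cell in these counts was not tested.

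Other peptide and receptor genes that mark central amygdala neurons also divided the precursors by cell counts. Pdyn was positive in 55 of 84 neurons with Crh (corticotropin-releasing hormone), 71 of 110 with Tac2 (neurokinin B) and 74 of 115 with Nts (neurotensin), but in 22 of 251 with Cartpt and 1 of 30 with Calcrl, a subunit of the CGRP receptor. Pnoc was positive in 32, 48 and 44 of the Crh, Tac2 and Nts neurons, in 16 of those with Cartpt and in 4 of those with Calcrl. Oprk1 was positive in 1, 2, 2, 13 and 0 of them in the same order. Penk was positive in 60, 74, 83, 200 and 26 of them, shares of 67.3% to 86.7% that lay on both sides of its mean of 77.7% over samples. Of all 810 neurons, 628 were positive for Penk, 168 for Pdyn, 112 for Pnoc and 63 for Oprk1.

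Most neurons expressed 1 precursor. Of 810 neurons, 104 were positive for 0 precursors, 531 for 1, 148 for 2 and 27 for all 3. Penk alone accounted for 467 neurons (58.0% ± 8.11 of a sample's neurons, n = 9), Pdyn alone for 41 and Pnoc alone for 23. The most frequent pair was Penk with Pdyn, in 86 neurons, of which 70.9% were Sst-positive. Penk with Pnoc was found in 48 neurons, of which 41.7% were Isl1-positive, and Pdyn with Pnoc in 14.

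**Figure D4:**
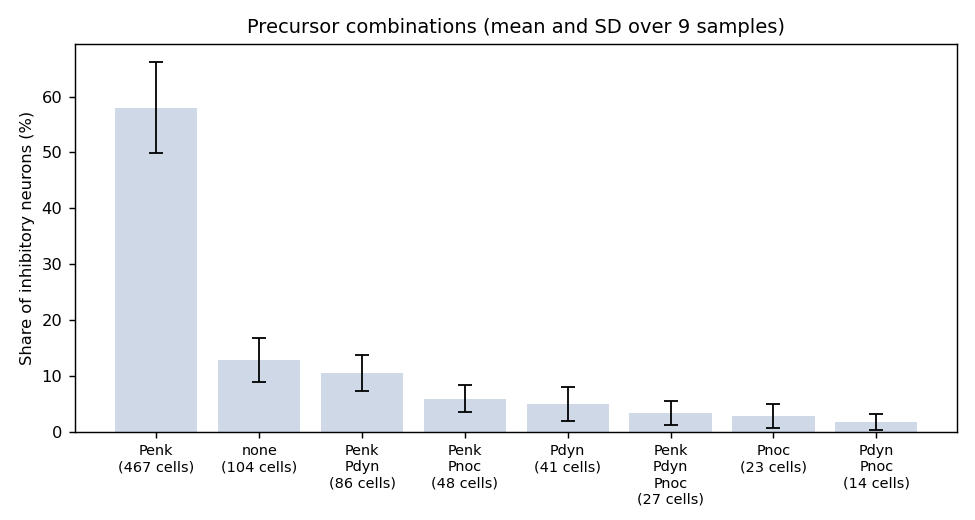
Share of inhibitory neurons (y axis, percent) with each combination of positive precursors, as bars for the mean and whiskers for the SD over 9 samples, with the number of neurons under each name. Penk alone makes up 58.0% and neurons with none of the 3 make up 12.8%.

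Neurons positive for 1 precursor were also counted for each other one. Pdyn was found in 17.99% of Penk-positive and 30.2% of Penk-negative neurons, and Pnoc in 11.9% and 20.3%. Pnoc was found in 24.4% of Pdyn-positive and 11.1% of Pdyn-negative neurons. For each pair the log2 odds ratio of being positive together was taken within samples, where 0.5 was added to each count of the table. This addition can set the sign where a gene is rare. Over the tested pairs 27 sample values came from 0 shared cells, and 9 of these were still above 0, all in pairs with Oprm1. The number of shared neurons minus the number expected from the shares was therefore taken as well, a measure chosen after seeing the data. The log2 odds ratio averaged -0.91 ± 0.80 (SD) for Penk with Pdyn (7 of 9 samples below 0), -1.01 ± 0.72 for Penk with Pnoc (8 of 9 below 0) and 1.32 ± 1.23 for Pdyn with Pnoc (7 of 9 above 0). Pdyn and Pnoc shared 41 neurons where 24.6 were expected from the shares within samples, and the difference was above 0 in 7 of 9 samples.

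No pair of the 15 tested passed (8 had an unadjusted p under 0.05, exact sign-flip permutation, lowest adjusted p = 0.0586), and 6 of the 21 pairs, those with Oprd1, were too rare to test. By shared minus expected neurons 0 of 15 passed and 7 had an unadjusted p under 0.05 (exact sign-flip permutation, lowest adjusted p = 0.0837). Without sample 4, 6 pairs passed by odds ratio. They were Penk with Pdyn (-1.05), Penk with Pnoc (-0.96), Penk with Oprl1 (-0.98), Pdyn with Pnoc (1.58), Pnoc with Oprl1 (1.18) and Pnoc with Oprm1 (1.14), a pair in which 4 samples sharing 0 neurons had a value above 0. The order of the pairs is therefore a description of these samples.

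Pdyn and Pnoc were also counted together within each marker class. In Prkcd-positive neurons 18 of 30 Pdyn-positive cells held Pnoc, against 10 of 313 others. In Prkcd-negative neurons the counts were 23 of 138 against 61 of 329, and in Sst-positive neurons 23 of 109 against 9 of 39. In Sst-negative neurons they were 18 of 59 against 62 of 603, in Isl1-negative neurons 29 of 144 against 42 of 590 and in Nr2f2-negative neurons 40 of 163 against 66 of 531. In Isl1-positive neurons they were 12 of 24 against 29 of 52, and in Nr2f2-positive neurons 1 of 5 against 5 of 111. Penk with Pnoc went the other way in Isl1-positive neurons, where 27 of 36 Penk-positive cells held Pnoc, against 14 of 40 others. In Isl1-negative neurons the counts were 48 of 592 against 23 of 142. In the Prkcd, Sst and Nr2f2 classes Pnoc was also less frequent in Penk-positive than in Penk-negative cells. These counts come from pooled neurons of 9 samples and were not tested.

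Levels were also compared between precursor-positive and precursor-negative neurons. Penk was at 516 to 1644 CPM (median 777) in Pdyn-positive and 1899 to 2800 CPM (median 2309) in Pdyn-negative neurons, without overlap (log2 fold change -1.42 ± 0.17, edgeR, adjusted p = 0.000154). Pnoc was at 75.7 to 166 CPM (median 119) against 14.9 to 119 CPM (median 49.8), higher in 8 of 9 samples (1.34 ± 0.25, edgeR, adjusted p = 0.00507). Of 5 opioid genes tested in the Pdyn split, 2 passed, 1 in each direction, where 5.12% of all 11456 genes did, 2.54% higher and 2.58% lower. The Pnoc call was lost without Mbp-positive neurons (0.84, edgeR, adjusted p = 0.673), with positive cells set at 1 count (1.06, adjusted p = 0.0746) and at 3 per 10000 (1.08, adjusted p = 0.334). Oprm1 (-3.55 ± 1.30, edgeR, adjusted p = 0.153) did not pass there, but did at 3 per 10000 (-5.92, adjusted p = 0.00599) and with DESeq2 (-3.70, adjusted p = 0.00229).

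In the Pnoc split Penk was lower in Pnoc-positive neurons, at 433 to 1810 CPM (median 1053) against 1680 to 2452 CPM (median 2298), and lower in 9 of 9 samples. The log2 fold change was -1.08 ± 0.16 (edgeR, adjusted p = 0.00359), the 1 of 5 tested genes that passed, where 3.21% of all 11288 genes did, 1.5% higher and 1.71% lower. Pnoc-positive neurons were deeper (median 156195 against 122525 counts), and thinning kept the call, which was lost at 3 per 10000 in the 6 samples kept (-1.04, edgeR, adjusted p = 0.183). Pdyn had a log2 fold change of -0.34 ± 0.34 there (edgeR, adjusted p = 0.650), higher in 3 of 9 samples, so its level did not follow the shared cell counts in sign. In the Penk split 0 of 5 opioid genes passed by edgeR, where 0.2% of all 11520 genes did, 0.0868% higher and 0.113% lower. Pnoc (-0.78 ± 0.27, adjusted p = 0.315) and Oprl1 (-0.56 ± 0.18, adjusted p = 0.285) there had an unadjusted p under 0.05 with edgeR. Pdyn was at 0.27 ± 0.34 (edgeR, adjusted p = 0.844), again opposite in sign to the shared cell counts.

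Receptors were found with and without precursors. At least 1 receptor was positive in 268 neurons (32.9% ± 5.64, n = 9), and 227 of them (84.7%) held at least 1 precursor, beside 479 of 542 neurons with no receptor (88.4%). These shares were not tested. Of these 268 neurons 243 were positive for 1 receptor, 23 for 2 and 2 for 3. Oprl1 alone made up 183, Oprk1 alone 49 and Oprm1 alone 10.

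Nociceptin's precursor and its receptor shared more neurons than their shares predict in 7 of 9 samples, a difference that did not pass. Of 112 Pnoc-positive neurons, 37.5% were positive for Oprl1, against 23.4% of Pnoc-negative ones. They shared 42 neurons where 28.6 were expected, with a log2 odds ratio of 0.99 ± 1.03 (8 of 9 samples above 0, exact sign-flip permutation, raw p = 0.0195, adjusted p = 0.0586). By level Oprl1 was at 42.4 to 146 CPM (median 91.3) in Pnoc-positive and 41.6 to 88.2 CPM (median 60.5) in Pnoc-negative neurons, which did not pass (0.48 ± 0.22, edgeR, adjusted p = 0.308).

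For dynorphin and its receptor no such excess was seen. Oprk1 was positive in 6.55% of Pdyn-positive and 8.10% of Pdyn-negative neurons, 11 shared neurons where 12.6 were expected (log2 odds ratio -0.02 ± 1.44, exact sign-flip permutation, adjusted p = 0.973). Enkephalin's precursor and Oprm1 shared 18 neurons where 19.1 were expected (-0.74 ± 1.78, exact sign-flip permutation, adjusted p = 0.431). Penk with Oprl1 lay below 0 in 7 of 9 samples (-0.81 ± 0.73, exact sign-flip permutation, adjusted p = 0.0586). Both Oprd1-positive neurons were Penk-positive.

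Among receptors, Oprm1 shared cells with the others in small numbers. It was positive with Oprl1 in 12 neurons where 6.58 were expected (log2 odds ratio 1.52 ± 1.36, exact sign-flip permutation, adjusted p = 0.0670) and with Oprk1 in 4 where 2.05 were expected. For Oprk1 with Oprm1 the odds ratio is not given, since 4 of the 5 samples that shared 0 neurons had a value above 0. Its shared minus expected neurons averaged 0.24 ± 0.68 per sample, above 0 in 3 of 8 samples (exact sign-flip permutation, adjusted p = 0.522). Oprk1 with Oprl1 shared 11 where 16.1 were expected (-0.51 ± 0.91, exact sign-flip permutation, adjusted p = 0.156). In Nr2f2-positive neurons 0 of 27 Oprk1-positive cells held Oprl1, against 27 of 89 others. In Nr2f2-negative neurons the counts were 11 of 36 against 167 of 658, and these pooled counts were not tested. With 25 Oprm1-positive neurons in all, Oprm1 shared 0 to 3 neurons per sample with Oprl1 and 0 to 2 with Oprk1.

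**Figure D5:**
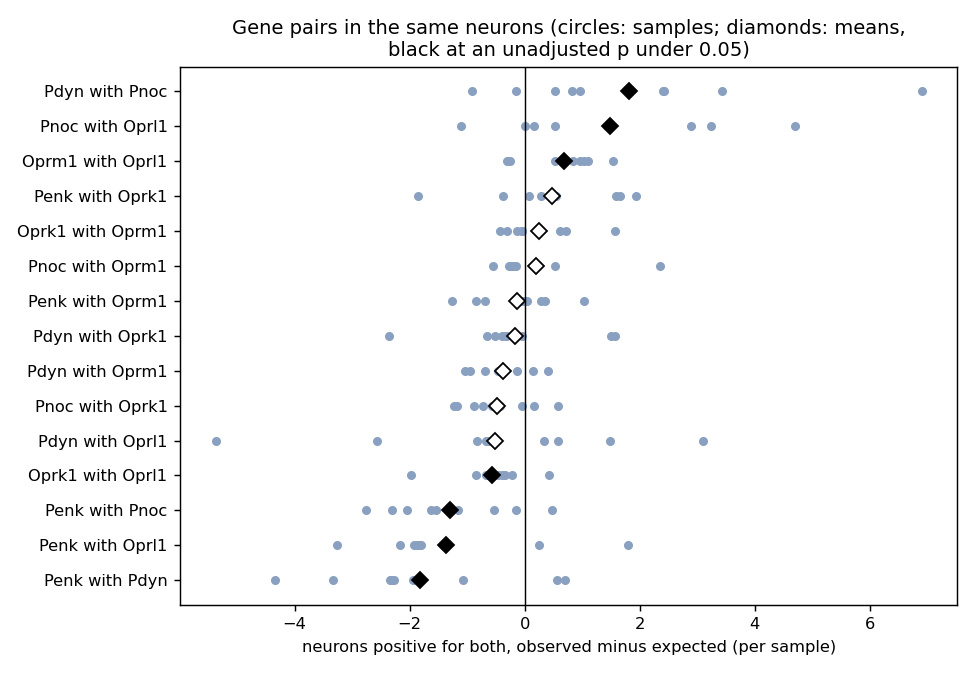
Number of neurons per sample positive for both genes minus the number expected from their shares (x axis) for the 15 pairs tested, with 1 circle per sample and a diamond for the mean, black where the unadjusted p was under 0.05. Penk with Pdyn (-1.82), Oprl1 (-1.36) and Pnoc (-1.29) lie lowest, and Pdyn with Pnoc (1.82) and Pnoc with Oprl1 (1.48) highest, and 0 of the 15 passed after adjustment.

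The genes whose levels varied most like each member were ranked by the mean over 9 samples of Pearson's r across neurons within a sample (log2 of CPM + 10, 9899 genes). Pdyn was most like Sst (mean r 0.70, 0.60 to 0.79 by sample), Tmem90a (0.57) and Tox (0.56). Pnoc was most like Tac2 (0.39), Fxyd6 (0.38) and Stmn2 (0.37), Penk like Cyp26b1 (0.32), an enzyme that degrades retinoic acid, and Oprk1 like Nr2f2 (0.31). No gene reached 0.3 for Oprm1, Oprd1 or Oprl1. Among the members, the mean r was -0.22 for Penk with Pdyn, -0.15 for Penk with Pnoc and 0.13 for both Pdyn with Pnoc and Pnoc with Oprl1. Points of 1 sample share a library and differ in depth, so these values are descriptions.

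The machinery that processes and transduces opioid peptides was described from lists of related genes. Of 7 prohormone processing genes, 2 rose and 2 fell in Prkcd-positive neurons, where 17.3% of all genes passed, and 2 rose and 1 fell in Sst-positive neurons, where 4.53% did. Pam, which amidates peptide ends, fell in Prkcd-positive neurons (log2 fold change -2.21 ± 0.15, edgeR, adjusted p = 3.43e-07) and rose in Sst-positive neurons (1.63 ± 0.15, edgeR, adjusted p = 1.62e-05). Pcsk2, a convertase that helps release enkephalins and dynorphins, fell in the first (-1.65 ± 0.25, edgeR, adjusted p = 0.000359) and rose in the second (1.55 ± 0.29, edgeR, adjusted p = 0.00672). Cpe, the carboxypeptidase that trims basic residues, rose in Prkcd-positive neurons (0.49 ± 0.05, edgeR, adjusted p = 2.81e-05). Pam and Pcsk2 also rose in Pdyn-positive neurons (1.62 and 1.16, edgeR, adjusted p = 3.69e-05 and 0.00891), and Pam in Pnoc-positive ones (1.37, edgeR, adjusted p = 0.00106).

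In Isl1-positive neurons 1 of the 7 rose (Pam, 0.69 ± 0.18, edgeR, adjusted p = 0.0399), where 4.85% of all genes passed, and in Nr2f2-positive neurons 1 rose (Pcsk1n, an inhibitor of the convertase made from Pcsk1, 0.35 ± 0.06, edgeR, adjusted p = 0.00625), where 1.69% did. The list medians were -0.21, 0.19, 0.03 and -0.19 in the Prkcd, Sst, Isl1 and Nr2f2 splits, beside medians of all genes tested of -0.02, -0.17, -0.34 and -0.24. The fold changes above are not corrected for these medians.

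Of 5 inhibitory G protein alpha subunits, Gnai1 was the 1 that passed in any of the 4 marker splits. It fell in Prkcd-positive (-0.52 ± 0.14, edgeR, adjusted p = 0.0195) and Nr2f2-positive neurons (-0.82 ± 0.19, adjusted p = 0.0396) and rose in Sst-positive neurons (0.67 ± 0.14, adjusted p = 0.0169). Beside this 1 of 5, 17.3% of all genes passed in the Prkcd split, which is a near share. In the Nr2f2 and Sst splits 1.69% and 4.53% of all genes passed. Of 11 genes for receptor kinases, arrestins and regulators of G protein signalling, 4 rose and 1 fell in Prkcd-positive neurons, beside 17.3% of all genes. Grk5 (1.72 ± 0.47), Rgs4 (1.24 ± 0.07) and Rgs14 (1.23 ± 0.12) rose most there (edgeR, adjusted p = 0.0223, 9.54e-08 and 8.53e-06). Rgs14 and Rgs4, which speed the shutdown of G protein signals, fell in Isl1-positive neurons (-1.77 ± 0.31 and -1.65 ± 0.14, edgeR, adjusted p = 0.00514 and 1.72e-05), where 0 of 11 rose. Of all genes tested in that split, 4.85% passed, 1.7% higher and 3.15% lower. In the Sst and Nr2f2 splits 0 of the 11 passed with edgeR, beside 4.53% and 1.69% of all genes.

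In the Prkcd split 17.3% of all genes passed, and the counts of the next lists are read beside that share. Of 8 effector genes tested there (channels and adenylyl cyclases), Adcy3 (-0.94 ± 0.24) and Kcnj3, a subunit of G protein-gated potassium channels (-0.54 ± 0.16), fell and Adcy5 rose (0.53 ± 0.12, edgeR, adjusted p = 0.0160, 0.0356 and 0.00773). Of 5 peptidases 1, Ece2, fell (-0.63 ± 0.17, edgeR, adjusted p = 0.0180), a share near that of all genes. Of 4 other opioid genes 1, Ogfrl1, related to the opioid growth factor receptor gene, fell (-1.03 ± 0.22, edgeR, adjusted p = 0.00510). Pomc, the precursor of beta-endorphin, was positive in 51 neurons and passed in none of the 4 marker splits (edgeR, Prkcd -1.13 ± 0.61, adjusted p = 0.245). The effector and peptidase lists passed in 0 genes in the Sst, Isl1 and Nr2f2 splits with edgeR, where 4.53%, 4.85% and 1.69% of all genes passed.

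Myelin transcripts were counted in the same classes. The summed level of the 4 oligodendrocyte genes was 73.7 to 115 CPM in Prkcd-positive and 42.3 to 2014 CPM in Prkcd-negative neurons, with the highest value in sample 5 and the next at 81.1 CPM. Mbp, which codes for myelin basic protein, did not pass in the Isl1 split (log2 fold change -1.05 ± 0.47, edgeR, unadjusted p = 0.0404, adjusted p = 0.222), the Pdyn split (-0.017 ± 0.33, edgeR, adjusted p = 0.987) or the Pnoc split (-0.51 ± 0.42, edgeR, adjusted p = 0.575). Without the 210 Mbp-positive neurons, 600 remained, and among called differences the Penk level in the Prkcd split, Oprk1 in the Nr2f2 split and Pnoc in the Pdyn split were lost, as given above. Their part in the remaining results was not tested further.

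The 19 cells that were not classed as inhibitory neurons give a comparison outside them. Penk was positive in 6 of the 19 (31.6%), of which 3 had at least 20000 counts. Each of the other 6 genes was found positive in 0 of 19, for which the limit is 15.8%. Limits of a 0 are 3 cells of the total and cover counting error alone.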

How the data were processed

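The authors deposited raw counts for each gene symbol and cell, in 1 table of 22601 genes and 91 ERCC spike-in rows for 829 cells. A metadata table gives each cell an animal number and an identifier. The date field is a part of that identifier, and reading it as a date was a choice made here. Per the submitters' processing notes, reads were handled with build NCBIM37 and with Seurat. The sources used here do not give the aligner, annotation, strand of counting or any molecular identifiers, so counts may include PCR copies. No genome of that build was used here, so no coordinates are given.

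Members and gene lists were chosen with earlier results of these data known. Raw counts of inhibitory neurons were summed for each sample and class (at least 5 cells) and tested with the quasi-likelihood test of edgeR 4.0.16 in R 4.3.3, after filterByExpr and TMM scaling. The sample entered as a block, because both classes of a pair come from 1 sample. The SE of an edgeR log2 fold change was derived from the test, as its absolute value divided by the square root of the F statistic. It is therefore approximate, above all for genes with few counts. The threshold was a p of 0.05 after Benjamini-Hochberg adjustment over all genes tested. Shares and odds ratios were tested by exact sign-flip permutation, with 0.5 added to each cell of an odds table, and pairs needed 20 positive neurons per gene and 6 samples. Named genes were all members, up to 3 genes of the highest mean r (at least 0.3) per member, and up to 3 passing genes per list and marker split. List genes named in the Pdyn and Pnoc splits and the myelin genes were chosen after their values were seen. One listed oligodendrocyte marker is not reported here. No cell was dropped for low counts (9 neurons had under 20000) and no doublets were removed. The tests were checked on simulated data. Alternatives were RLE scaling, DESeq2 1.42.0, no filter, no block, a positive cell set at 1 count or 3 per 10000, thinning to 70000 counts (750 neurons kept), 2 cell filters, each sample left out and, for pairs, shared minus expected neurons.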

Additional observations from a re-analysis of the deposited data

Results flagged for a closer look

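In 57 sets of 8 or 9 sample values, 8 held a value that stood apart from the others by Dixon's criterion. Chance gives this in about 1 of 20 independent sets of normally distributed values. The sets here share cells, and the Oprd1 share differences were 0 in 7 of 9 samples, so that rate does not apply to them. Mean Penk was lowest in sample 2, at 16.1 counts per 10000, with the next at 19.0 and the highest at 21.5. The Pdyn share was highest in sample 1, at 35.8%, with the next at 23.7%. Sample 3 had the lowest difference in Pnoc share by Prkcd (-27.5 percentage points, next -14.3).

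Differences for the rarer receptors rest on 1 to a few cells. The highest difference in Oprk1 share was 13.3 percentage points by Prkcd in sample 7 (next 1.63) and 12.5 by Sst in sample 4 (next -1.10). For Oprd1, with 2 positive neurons, the values were -2.33 percentage points by Prkcd and 6.25 by Nr2f2, each with 0 as the nearest value. The lowest log2 odds ratio of Oprk1 with Oprl1 was -2.66, with the next at -0.97. Outside the inhibitory neurons, Penk was positive in 31.6% of 19 cells, a signal in cells that no comparison used.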

How the results depend on the processing

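Across the alternatives, the 13 called level differences kept their sign in 244 of 244 refits and were no longer called in 34, while the 7 called shares kept theirs in 107 of 107 and were no longer called in 15. Oprm1 in the Sst split was tested in 17 refits, against 19 for Penk and Pdyn there. Some refits thus gave no test of Oprm1, and a refit not named for it is not evidence that its call held. Levels near the threshold and 2 to 25 positive cells limit Oprd1 and Oprm1, and the classes of Isl1 hold 6 to 17 cells per sample. The Isl1 split at 3 per 10000 was not run, since too few samples kept 5 cells. Refits among Sst-negative or Prkcd-negative neurons were chosen after seeing the data, as was counting shared minus expected neurons, which turned the sign of 0 of the 15 pairs. The causes of the changes below were not tested.

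The thresholds of 1 count and 3 per 10000 changed the classes of each split as well as the positive cells. At 1 count 498 neurons were Prkcd-positive, 450 Sst-positive and 329 Pdyn-positive, against 343, 148 and 168 in the main splits. Called genes moved as follows. At 1 count they numbered 0 in the Prkcd split (3 before), 1 in the Sst split (3) and 1 in the Pdyn split (2). At 3 per 10000 they numbered 1 in the Nr2f2 split (2), 0 in the Pnoc split (1), and 4 share differences (7) and 2 pairs (0) passed. Those 4 include Penk by Sst, which had not passed before, and both called Isl1 shares were not run. The Nr2f2 and Pnoc splits kept 6 samples each at this threshold. In the Pdyn split Pnoc was lost at 3 per 10000 and Oprm1 gained, so its count stayed at 2. In thinned counts Penk was lost and Pnoc gained in the Prkcd split, and Oprk1 lost and Pnoc gained in the Nr2f2 split. At 1 count the called shares of Pdyn and Pnoc by Prkcd and Penk by Isl1 were lost, and those of Pdyn and Oprl1 by Isl1 gained. Without Mbp-positive neurons 1 was called in the Nr2f2 and 1 in the Pdyn split. Leaving out 1 sample gave 1 to 3 in the Nr2f2 split and 0 to 6 passing pairs. Among Prkcd-negative neurons 1 was called in the Isl1 split (2), and among Sst-negative neurons 0 in the Nr2f2 split.

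Positive shares at 1 count were 94.0% for Penk, 40.1% for Pdyn, 19.1% for Pnoc, 12.6% for Oprk1, 9.13% for Oprm1, 1.5% for Oprd1 and 43.3% for Oprl1. At 3 per 10000 they were 65.9% for Penk, 7.30% for Pnoc, 3.29% for Oprk1, 0.121% for Oprm1 and 3.45% for Oprl1.

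With no sample block (the pairing of classes by sample ignored), the Oprm1 call in the Sst split was lost (-2.90, edgeR, adjusted p = 0.0740) and no other call. Uncalled log2 fold changes that turned sign without the block were Oprm1 in the Isl1 (0.40), Nr2f2 (0.13), Penk (-0.19) and Pnoc splits (0.14) and Pdyn in the Penk split (-0.013).

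Other uncalled results that turned sign stayed uncalled. At 1 count the log2 fold changes were 0.062 for Oprk1 and 0.085 for Oprm1 (Prkcd split), 0.024 for Penk, 0.089 for Oprm1 and 0.0041 for Oprl1 (Nr2f2) and 0.55 for Pnoc (Penk split). At 3 per 10000 they were -0.18 for Oprl1 (Sst), 0.0079 for Oprl1 (Nr2f2) and -0.41 for Pdyn (Penk split). In thinned counts Oprl1 was at -0.027 (Sst) and 0.020 (Pdyn split). Without Mbp-positive neurons Pnoc was at -0.11 and Oprl1 at -0.12 (Sst). Among Prkcd-negative neurons these were -0.40 and -0.30, and Pdyn was at 1.40 (Isl1) among Sst-negative ones. Leaving out 1 sample gave -0.054 to 0.18 for Oprl1 (Sst) and -0.16 to 0.74 for Oprm1 (Penk split).

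Uncalled share differences turned as follows, in percentage points. At 1 count they were 0.37 for Oprk1 and 1.66 for Oprm1 (Prkcd), 5.79 for Oprl1 (Sst), 3.37 for Oprk1 (Isl1) and 1.27 for Oprl1 (Nr2f2). At 3 per 10000 they were 0.27 for Oprm1 (Prkcd), 0.75 for Oprl1 (Sst), and -0.19 for Oprm1 and 6.25 for Oprl1 (Nr2f2). Oprm1 by Nr2f2 was -0.27 in thinned counts and -0.093 among Prkcd-negative neurons, where Pnoc by Sst was -5.35. Without Mbp-positive neurons Oprd1 was at 0.32 (Prkcd) and -0.20 (Nr2f2). Leaving out 1 sample gave -1.06 to 0.040 for Oprm1 and -0.29 to 0.27 for Oprd1 (Prkcd), -3.64 to 0.95 for Oprl1 (Sst), -1.06 to 1.89 for Oprm1 (Isl1), and -0.22 to 1.48 for Oprm1 and -0.15 to 0.78 for Oprd1 (Nr2f2).

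Log2 odds ratios turned at 1 count for Penk with Oprk1 (-0.66), Pdyn with Oprl1 (0.21) and Oprk1 with Oprl1 (0.49), and at 3 per 10000 for Pdyn with Oprl1 (0.70), Pnoc with Oprk1 (0.74) and Oprk1 with Oprl1 (1.46). Pdyn with Oprk1 was at 0.30 in thinned counts and 0.11 without Mbp-positive neurons. Leaving out 1 sample gave -0.078 to 0.55 for Penk with Oprk1, -0.30 to 0.34 for Pdyn with Oprk1 and -0.36 to 0.043 for Pdyn with Oprl1.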
